A study of Homo sapiens with 12 samples.

Results

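The core autophagosome formation genes are a list of 38 human genes, picked by name from the 28278 gene symbols of the count table, whose products build the double membrane that encloses cargo in autophagy. RNA was sequenced from WA09-Islet1-GFP cells, a human embryonic stem cell line of wild-type genotype in which GFP reports Islet1, a motor neuron transcription factor, after differentiation to motor neurons. Cultures received cis-chlordane, a cyclodiene pesticide, for 16 hours, or the solvent DMSO alone, and were then dissociated and sorted on GFP. The dose is 10 µM in the sample labels and higher in the methods of the study. This gave 4 groups with 3 libraries each, namely control GFP-positive, treated GFP-positive, control GFP-negative and treated GFP-negative. All groups came from the same line, so they hold no variation between donors, and the GFP-negative groups hold whatever else was in the culture. Replicates are separate thaws of frozen cells per the methods, and p-values measure only the spread between these.

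In autophagy, a cup of membrane grows at the endoplasmic reticulum (ER), closes around its cargo as an autophagosome and fuses with lysosomes. The ULK complex, a kinase with its scaffolds, receives the starting signal. The class III PI3-kinase complex around Beclin 1 then marks the membrane with the lipid PI3P, to which the WIPI proteins bind, while ATG2 proteins carry lipid and ATG9 vesicles supply membrane. A conjugation system much like that of ubiquitin attaches the ATG8 proteins, LC3 and GABARAP, to the growing membrane. In neurons, autophagosomes form largely at axon ends and are carried back to the cell body.

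Library totals ran from 23414935 to 38347050 counts, with a median of 31553596. CPM values below, counts scaled to a common library total, are scaled by TMM, which corrects that total for composition. The 8 motor neuron markers together reached 1720 to 1920 CPM in control GFP-positive and 300 to 343 CPM in control GFP-negative libraries, and 513 to 702 and 110 to 144 CPM in the treated counterparts, with none of the 8 at 0. ISL1 fell in treated GFP-positive libraries (log2 fold change -2.38, edgeR adjusted p = 6e-12). The 6 markers of proliferating cells summed to 850 to 898 CPM in control GFP-negative and 259 to 313 CPM in treated GFP-negative libraries. The part of these shifts in the results that follow was not tested, and in bulk RNA fewer cells of a type and less RNA per cell cannot be told apart. Replicate 3 of control GFP-negative stood apart from the other 2. Its 8 white blood cell markers, a list drawn up after the data were seen, summed to 436 CPM against 0.525 and 0.675 CPM.

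All 38 genes passed the filter on low counts in each comparison. Treated GFP-positive cells had higher mRNA of WIPI1, a PI3P-binding protein of the early membrane, and of TMEM41B, an ER lipid scramblase, by 4.88-fold and 4.33-fold. Both rose in GFP-negative cells too, by 11.6-fold and 3.86-fold. Smaller increases fell on the scaffolds of the ULK complex, on the accessory PI3-kinase subunit NRBF2, and on ATG3, ATG5 and ATG12 of the conjugation system. ATG9B, one of the pair of ATG9 proteins, was lower in both fractions. The reference promoters of WIPI1 and TMEM41B, the genes with the largest increases, and the 2 windows of WDR45, whose response differed between the fractions, are shown here in the direction of transcription. Each covers 250 bases before to 50 after a RefSeq start on GRCh38.p14, and all lie on the minus strand, at chr17:68457447-68457746 for WIPI1, chr11:9314544-9314843 for TMEM41B, and chrX:49101129-49101428 (upstream) and chrX:49079838-49080137 (downstream) for WDR45. Capitals mark a CCAAT box, read as ATTGG on the other strand, or TGATGNAA, the composite element bound by C/EBP and ATF factors.
WIPI1: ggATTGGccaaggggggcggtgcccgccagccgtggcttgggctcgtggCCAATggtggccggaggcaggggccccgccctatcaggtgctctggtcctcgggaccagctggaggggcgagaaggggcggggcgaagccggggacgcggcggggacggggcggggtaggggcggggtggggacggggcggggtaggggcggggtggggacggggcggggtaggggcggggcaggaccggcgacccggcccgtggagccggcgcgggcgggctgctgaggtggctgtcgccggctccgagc
TMEM41B: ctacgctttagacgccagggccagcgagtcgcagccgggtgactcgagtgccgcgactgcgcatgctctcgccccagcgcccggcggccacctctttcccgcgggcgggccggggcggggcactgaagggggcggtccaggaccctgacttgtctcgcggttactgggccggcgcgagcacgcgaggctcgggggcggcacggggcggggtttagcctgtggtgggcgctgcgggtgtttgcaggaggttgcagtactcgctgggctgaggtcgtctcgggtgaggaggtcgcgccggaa
WDR45 upstream: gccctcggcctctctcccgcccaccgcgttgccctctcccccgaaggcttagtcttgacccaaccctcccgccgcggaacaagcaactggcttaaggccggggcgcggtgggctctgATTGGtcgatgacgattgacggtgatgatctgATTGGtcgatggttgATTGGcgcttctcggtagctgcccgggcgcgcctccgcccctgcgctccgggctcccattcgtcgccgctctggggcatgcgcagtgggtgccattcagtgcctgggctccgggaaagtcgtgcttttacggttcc
WDR45 downstream: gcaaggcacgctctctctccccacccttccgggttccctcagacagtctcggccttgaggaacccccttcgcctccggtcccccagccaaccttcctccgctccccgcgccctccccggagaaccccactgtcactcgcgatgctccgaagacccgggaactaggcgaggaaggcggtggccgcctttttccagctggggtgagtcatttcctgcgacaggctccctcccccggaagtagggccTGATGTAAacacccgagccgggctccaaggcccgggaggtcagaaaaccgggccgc

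RefSeq windows were matched for 32 of the 38 genes, several with more than 1 start. TGATGNAA, searched on both strands, was found in 1 of the 32, WDR45, against 4.46% of the 27305 symbols with a window. The match in WDR45 begins 6 bases before its downstream start and runs across that start. CCAAT was found in 14 of the 32 (43.8%) against 39.7% of symbols, in WIPI1 and in the upstream window of WDR45 among others. CACGTG, the core of the element read by TFEB and TFE3 and its own reverse complement, was found in ATG14, ATG3 and NRBF2, which is 9.38% of the genes against 8.77% of symbols. TGACGTGG, the core of the unfolded protein response element, was in none of the 32 and in 0.927% of symbols. Nor did any of the 32 hold either of the longer ER stress response elements, present in 0.0916% and 0.0696% of symbols. These are matches of letters in 300-base windows and do not show that a factor binds.

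In GFP-positive cells, 15 of the 38 genes rose and 3 fell with cis-chlordane at an adjusted p under 0.05 by the quasi-likelihood test of edgeR, adjusted after Benjamini and Hochberg, from which all adjusted p-values here come. Over all 15333 genes tested, 26.5% were higher and 24.4% lower, 50.9% in all, so the number of changed autophagosome genes (47.4%) lay near the background and only their balance was tilted upward. With a fold change of at least 2 added, 6 were higher and 1 lower, or 18.4%, against 24% of all genes (12.8% higher and 11.2% lower). The median log2 fold change was 0.26 against 0.03 over all genes. In 20 of the 38 genes no treated library reached into the range of the controls, with 14 higher (26.9% of all genes) and 6 lower (30.6%), against 57.5% of all genes in both directions.

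In GFP-negative cells, 15 genes rose and 1 fell, against 15.3% of 15513 genes tested that were higher and 16.2% that were lower (31.5% in all). With a fold change of at least 2, 7 were higher and 0 lower (18.4%), against 18.3% of all genes (8.59% higher and 9.75% lower). The median log2 fold change was 0.39 against -0.01. The groups did not overlap in 19 genes that were higher (24% of all genes) and 1 that was lower (22.6%), against 46.6% of all genes in both directions. The 12 genes that rose in both fractions were ATG13, RB1CC1, ATG101, NRBF2, WIPI1, WDR45B, ATG3, ATG5, ATG12, VMP1, TMEM41B and TFE3. In 17 genes the test was passed in neither fraction. Shares of all genes called in both fractions or in neither were not computed, so whether these counts are unusual was not tested.

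**Figure D1:**
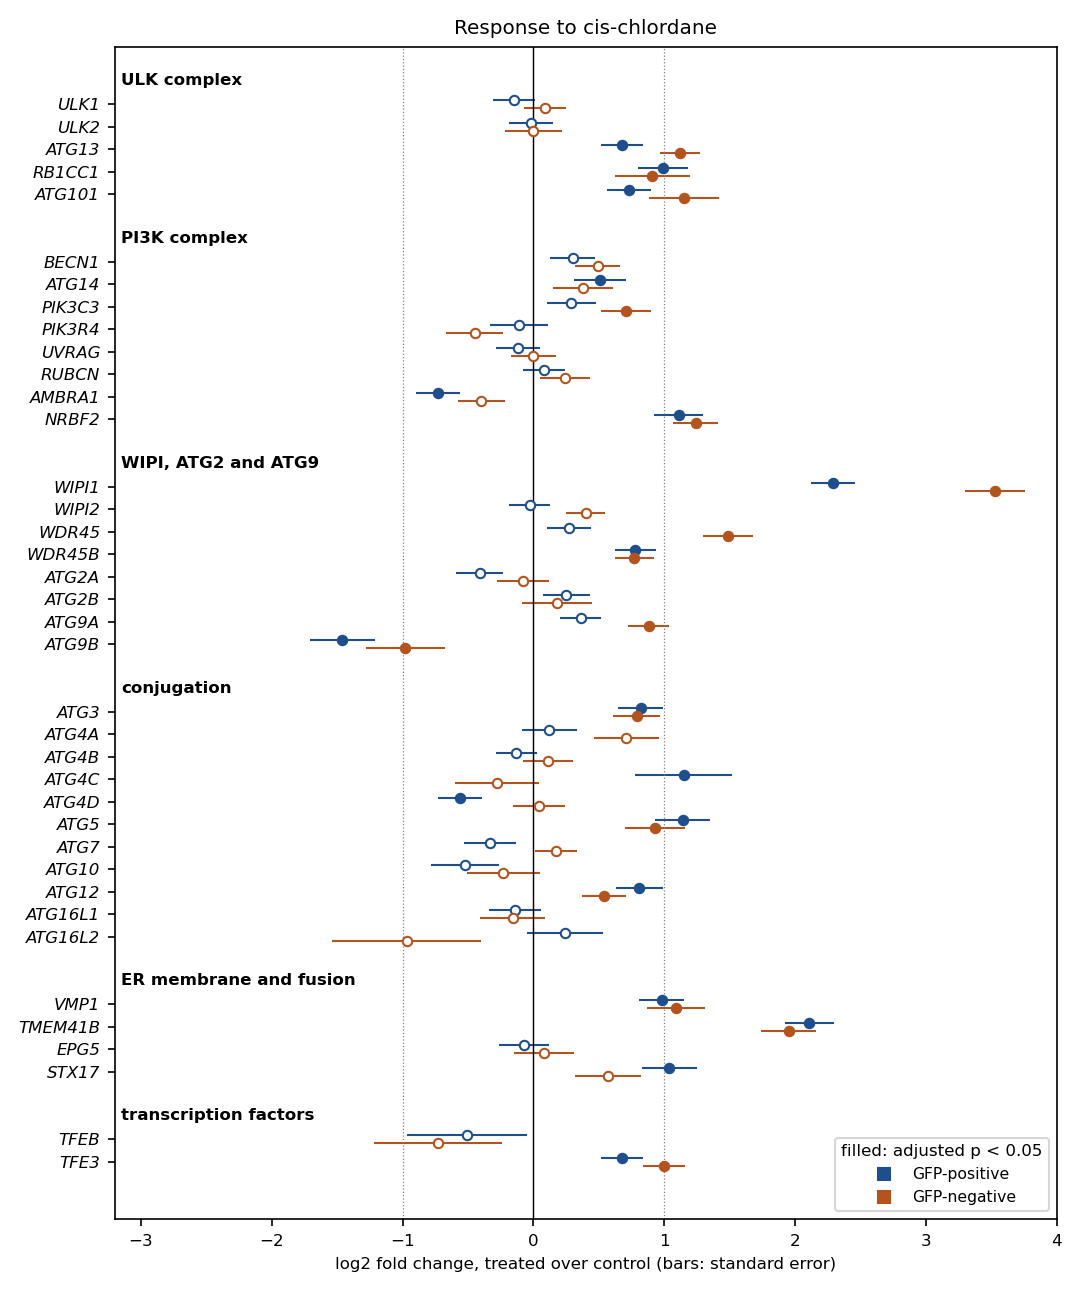
Log2 fold change of each of the 38 genes, treated over control, in GFP-positive (blue) and GFP-negative (orange) cells, by functional class. Bars are standard errors, filled points have an adjusted p under 0.05, and dotted lines mark a 2-fold change. WIPI1 and TMEM41B lie farthest to the right, and WIPI1, WDR45, ATG4C and ATG16L2 show wide gaps between the fractions, the last pair with long error bars.

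Within the ULK complex, the scaffolds ATG13, RB1CC1 (also called FIP200) and ATG101 rose in both fractions, whereas neither kinase passed the test in either. ATG13 had 136, 179 and 141 CPM in control and 230, 209 and 256 CPM in treated GFP-positive libraries, and 115, 122 and 106 CPM against 234, 235 and 287 CPM in GFP-negative libraries. No control library reached a treated one in either fraction. On the log2 scale it rose by 0.68 ± 0.16 (SE, edgeR adjusted p = 6.2e-04) and 1.12 ± 0.15 (adjusted p = 7e-04). RB1CC1 rose by 0.99 ± 0.19 on the log2 scale in GFP-positive (adjusted p = 4.3e-05) and by 0.91 ± 0.29 in GFP-negative cells (adjusted p = 0.037), with treated GFP-positive replicate 3 highest at 90.6 CPM. The call in GFP-negative cells was lost with library size alone and when any of control replicate 2 or the 3 treated replicates was left out, with an adjusted p of up to 0.15.

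ATG101, which steadies ATG13, had 64, 65.1 and 54.4 CPM in control and 85.6, 87.1 and 118 CPM in treated GFP-positive libraries. GFP-negative libraries had 83.7, 70.2 and 52.4 CPM against 148, 103 and 215 CPM. The groups did not overlap, but the treated GFP-negative libraries were spread widely. It rose by 0.73 ± 0.17 (edgeR adjusted p = 5.5e-04) on the log2 scale in GFP-positive and 1.15 ± 0.27 (adjusted p = 0.01) in GFP-negative cells. ULK1, the main kinase, had 218, 248 and 221 CPM in control and 236, 194 and 163 CPM in treated GFP-positive libraries, which overlap. Its log2 fold change was -0.15 ± 0.16 in GFP-positive (adjusted p = 0.46) and 0.09 ± 0.16 in GFP-negative cells (adjusted p = 0.7). With the trend on GC content removed, the former turned to 0.33 (adjusted p = 0.043). ULK2, its paralog, gave -0.02 ± 0.17 and -0.00 ± 0.22.

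Of the 8 genes of the PI3-kinase complex and its regulators, NRBF2 alone rose in both fractions. NRBF2, which binds the complex with ATG14, had 17.4, 15.7 and 16.6 CPM in control and 32.2, 28.7 and 41.6 CPM in treated GFP-positive libraries. Values in GFP-negative libraries were 14.2, 13.1 and 14.2 CPM against 33.4, 31.9 and 33.9 CPM. The treated libraries stood clear of the controls, and the GFP-negative ones lay close together. The increase was 1.11 ± 0.19 on the log2 scale (edgeR adjusted p = 8.7e-06) and 1.24 ± 0.17 (adjusted p = 5.8e-04). PIK3C3, the catalytic subunit VPS34, rose in GFP-negative cells by 0.71 ± 0.19 on the log2 scale (adjusted p = 0.021), a call lost without control replicate 2 or treated replicates 1 or 3 (adjusted p up to 0.094). With the GC trend removed PIK3C3 gave 0.44 there (adjusted p = 0.04), and with the replicate block added to that the call was lost. In GFP-positive cells it gave 0.29 ± 0.19 (adjusted p = 0.2).

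ATG14, which directs the complex to the ER, passed in GFP-positive cells with 0.51 ± 0.20 (edgeR adjusted p = 0.037), although its libraries overlapped, at 16.9, 16.6 and 19.2 CPM against 22.4, 17.3 and 31.6 CPM. That call was lost in 9 of 15 alternatives, among them DESeq2, removal of the GC trend (adjusted p = 0.17) and the omission of any GFP-positive library but treated replicate 2. AMBRA1, a regulator that links Beclin 1 to ULK1, fell in GFP-positive cells by 0.73 on the log2 scale (adjusted p = 6.6e-04), from a mean of 113 ± 23.7 CPM (SD, n = 3) to 65.1 ± 9.17 CPM. In GFP-negative cells its log2 fold change was -0.40 ± 0.18 (adjusted p = 0.12). BECN1, the core of the complex, gave 0.30 ± 0.17 and 0.49 ± 0.17 (adjusted p = 0.15 and 0.053). PIK3R4, the regulatory subunit, gave -0.11 and -0.45, UVRAG -0.12 and -0.00, and RUBCN, an inhibitor of the UVRAG-containing complex, 0.08 and 0.24, none past the test.

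WIPI1 had the largest change of the 38 genes in both fractions. It had 27.9, 30.5 and 25.7 CPM in control and 148, 121 and 122 CPM in treated GFP-positive libraries. In GFP-negative libraries it had 19.9, 15.1 and 11.8 CPM against 209, 184 and 159 CPM. The order of the fractions thus turned over, with GFP-positive higher in controls and GFP-negative higher after treatment. Its log2 fold change was 2.29 ± 0.17 (edgeR adjusted p = 2.7e-13) and 3.53 ± 0.23 (adjusted p = 1.5e-05), and with the GC trend removed it was 2.30 and 3.54. Of the exonic bases of WIPI1, 24.4% overlap ARSG on the opposite strand, and the strand setting of the counting was not given in the sources used here. ARSG had 0.45 ± 0.21 (adjusted p = 0.07) and 0.36 ± 0.24 (adjusted p = 0.28) on the same scale, with means of 13 to 18 CPM in the 4 groups.

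Its paralog WIPI2, which recruits the ATG16L1 complex, had 122, 150 and 127 CPM against 117, 125 and 131 CPM in GFP-positive libraries, with no separation. The log2 fold change was -0.03 ± 0.16 (edgeR adjusted p = 0.9) there and 0.40 ± 0.15 (adjusted p = 0.067) in GFP-negative cells. WDR45B (WIPI3) rose alike in both, by 0.78 ± 0.16 (adjusted p = 7.9e-05) and 0.77 ± 0.15 (adjusted p = 0.0037). WDR45 (WIPI4), the gene of a neurodegeneration with iron in the brain, had 45.3, 58 and 40.6 CPM against 58.6, 51.6 and 55.2 CPM in GFP-positive libraries, which overlapped. In GFP-negative libraries it had 41.9, 37.5 and 31.1 CPM against 102, 89.5 and 123 CPM, which did not. The log2 fold change was 0.27 ± 0.17 (adjusted p = 0.2) and 1.49 ± 0.19 (adjusted p = 4.1e-04). With the GC trend removed, WDR45 also passed in GFP-positive cells, at 0.55 (adjusted p = 0.0031).

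The ATG9 paralogs moved apart. ATG9A, the broadly used scramblase of ATG9 vesicles, gave 0.36 ± 0.16 in GFP-positive (edgeR adjusted p = 0.064) and rose by 0.88 ± 0.16 in GFP-negative cells (adjusted p = 0.0026). With the GC trend removed it passed in GFP-positive cells as well, at 0.69 (adjusted p = 2.2e-04). ATG9B had 7.38, 8.52 and 8.48 CPM in control and 2.79, 3.23 and 2.44 CPM in treated GFP-positive libraries. The GFP-negative libraries held 3.58, 4.7 and 3.03 CPM against 1.94, 1.89 and 1.98 CPM. All treated libraries lay below the controls. Log2 fold changes were -1.46 ± 0.25 (adjusted p = 6.4e-06) and -0.98 ± 0.30 (adjusted p = 0.031), the latter lost with the replicate block, with the GC trend removed and without control replicate 2 or any treated replicate (adjusted p up to 0.16). ATG9B shares 12.3% of its exonic bases with NOS3 on the other strand, whose mean stayed between 0.854 and 2.55 CPM. Other genes of the list share exonic bases too. ATG9A (38.8%) and WDR45 (14.4%) do so with protein-coding genes on the same strand, and RUBCN (53.8%) with a long noncoding RNA on the other strand. None of these partners is in the count table, and the effect on the counts was not tested. The lipid carriers gave -0.41 and -0.08 for ATG2A and 0.25 and 0.18 for ATG2B, with no call.

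**Figure D2:**
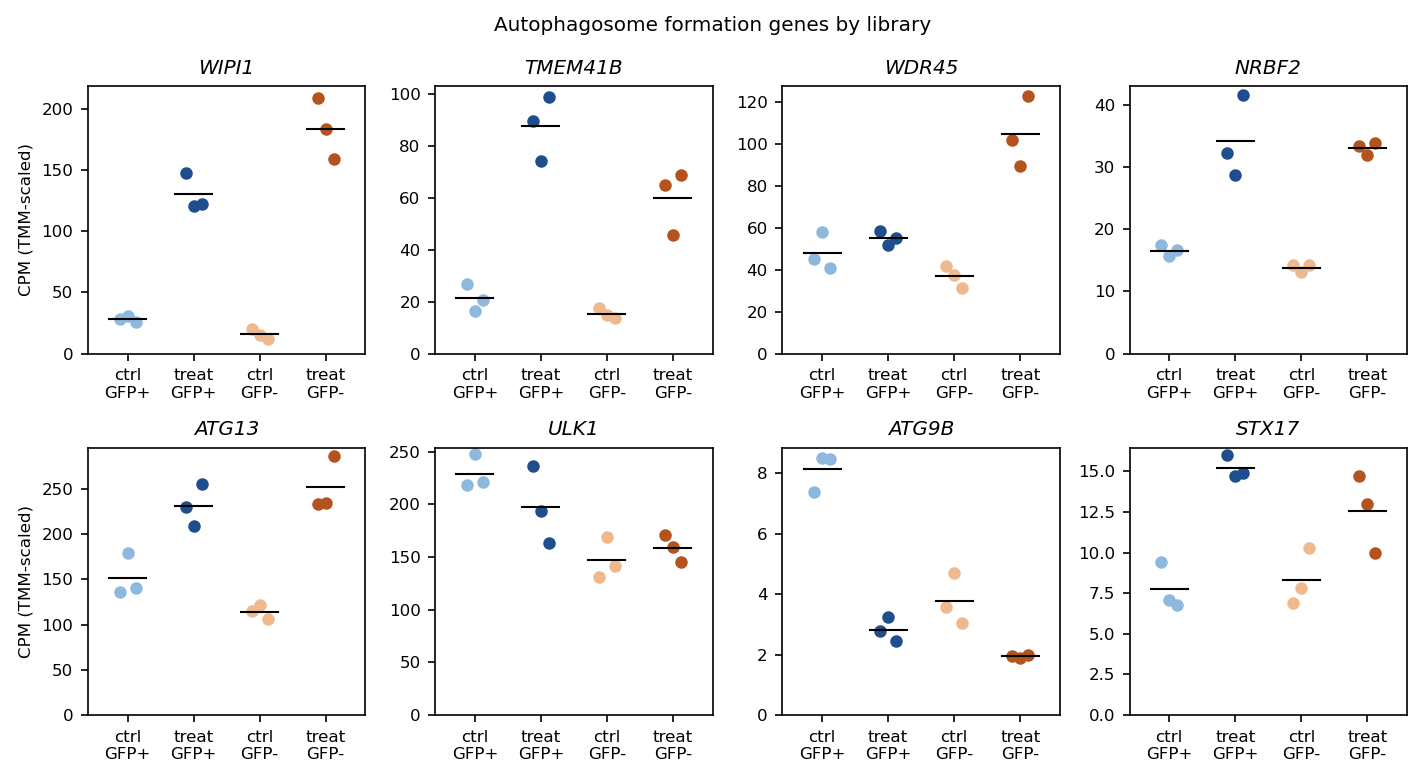
CPM of 8 of the genes in each of the 12 libraries (points) with the group mean (line), by sort fraction and treatment. Each panel has its own axis from 0. WIPI1 and TMEM41B treated libraries lie far above the controls in both fractions, WDR45 does so in GFP-negative cells, ULK1 libraries overlap, and ATG9B lies lower after treatment.

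In the conjugation system, 4 of 11 genes rose and 1 fell in GFP-positive cells, and 3 rose in GFP-negative cells, which is 45.5% and 27.3% against 50.9% and 31.5% of all genes. ATG5, which joins ATG12 in the ligase, had 14.9, 10.3 and 12.8 CPM in control and 20.7, 24.5 and 34.7 CPM in treated GFP-positive libraries. In GFP-negative libraries it had 15.5, 12.5 and 12.4 CPM against 23.5, 20.2 and 34.5 CPM. Replicate 3 was the highest treated library in both fractions, and no library of one group reached the other. ATG5 rose by 1.14 ± 0.21 on the log2 scale (edgeR adjusted p = 2.6e-05) and 0.93 ± 0.23 (adjusted p = 0.014), the latter lost with the GC trend removed and without control replicate 2 or treated replicate 3 (adjusted p up to 0.11). ATG3, the E2-like enzyme, rose by 0.82 ± 0.17 (adjusted p = 1.6e-04) and 0.79 ± 0.18 (adjusted p = 0.0082). The call in GFP-negative cells was lost without control replicate 2 or treated replicate 1 (adjusted p up to 0.058).

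ATG12, the ubiquitin-like partner of ATG5, rose by 0.81 ± 0.18 (edgeR adjusted p = 3.2e-04) and 0.54 ± 0.17 (adjusted p = 0.039). Its transcript is GC-poor at 36.1%, and with the GC trend removed it gave 0.27 and 0.22 and passed in neither fraction (adjusted p = 0.089 and 0.32). The call in GFP-negative cells was also lost with library size alone, without the filter on low counts, with the replicate block and without control replicates 1 or 2 or treated replicates 1 or 3. Its libraries did not overlap in either fraction, at 30.8 to 43.2 CPM against 54.7 to 74.2 CPM and at 25.6 to 33.5 CPM against 39.1 to 45.7 CPM. By contrast ATG7, the E1-like enzyme on which both conjugation routes depend, gave -0.33 ± 0.20 and 0.17 ± 0.16, and the E2-like ATG10 -0.52 ± 0.26 and -0.23 ± 0.28. ATG10 passed as lower in GFP-positive cells with the GC trend removed (-0.75, adjusted p = 0.02). ATG16L1, which places the ligase on the membrane, gave -0.14 ± 0.20 and -0.16 ± 0.25.

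The ATG4 proteases, which trim ATG8 proteins before conjugation and later release them, showed no common direction. ATG4C had 1.04, 0.608 and 1.15 CPM in control and 2.37, 1.72 and 1.83 CPM in treated GFP-positive libraries, a low level without overlap. The log2 fold change was 1.15 ± 0.37 (edgeR adjusted p = 0.0086), and 0.60 (adjusted p = 0.17) with the GC trend removed. That call was also lost without control replicate 2 or treated replicate 1. In GFP-negative libraries ATG4C had 2.79, 2.82 and 4.55 CPM against 3.45, 2.65 and 2.34 CPM, which overlap (-0.28 ± 0.32, adjusted p = 0.54). ATG4D fell in GFP-positive cells by 0.56 on the log2 scale (adjusted p = 0.005), but gave -0.04 (adjusted p = 0.8) with the GC trend removed and 0.04 ± 0.20 in GFP-negative cells. ATG4A gave 0.12 and 0.71 and ATG4B -0.13 and 0.11, with no call.

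ATG16L2, a paralog of ATG16L1 expressed in blood cells, was one of the genes touched by the library that stood apart. It had 4.96, 3.23 and 19.2 CPM in control and 5.91, 4.47 and 3.72 CPM in treated GFP-negative libraries, the 19.2 CPM being replicate 3. Its log2 fold change of -0.97 ± 0.57 passed no test (edgeR adjusted p = 0.23). Without that library, all 16 genes called in GFP-negative cells were called again, with ATG4A and STX17 added.

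The ER proteins VMP1 and TMEM41B, scramblases that act together where the membrane starts, both rose in both fractions. TMEM41B had 26.7, 16.2 and 20.8 CPM in control and 89.7, 74.1 and 98.8 CPM in treated GFP-positive libraries. GFP-negative libraries held 17.5, 14.7 and 13.6 CPM against 64.9, 45.8 and 68.9 CPM. The lowest treated library was far above the highest control. TMEM41B rose by 2.11 ± 0.19 on the log2 scale (edgeR adjusted p = 2.8e-11) and 1.95 ± 0.21 (adjusted p = 1.9e-04), and 1.66 and 1.64 with the GC trend removed. VMP1 had 74.4, 90.1 and 94.8 CPM against 144, 137 and 207 CPM in GFP-positive and 86.8, 79.2 and 107 CPM against 202, 141 and 246 CPM in GFP-negative libraries. Treated libraries were higher without overlap in both, by 0.98 ± 0.17 (adjusted p = 1.4e-05) and 1.09 ± 0.22 (adjusted p = 0.0045). With the GC trend removed VMP1 gave 0.58 and 0.86. WIPI1 and TMEM41B were the only genes of the 38 that passed glmTreat, a test against a 2-fold change, in GFP-positive cells. In GFP-negative cells 2 passed it, the same pair. Over all genes tested, 1648 of 15333 passed it in GFP-positive and 812 of 15513 in GFP-negative cells.

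STX17, the SNARE that fuses the closed autophagosome with the lysosome, had 9.43, 7.1 and 6.75 CPM in control and 16, 14.7 and 14.9 CPM in treated GFP-positive libraries. It rose there by 1.04 ± 0.21 on the log2 scale (edgeR adjusted p = 7.7e-05). In GFP-negative libraries it had 6.9, 7.81 and 10.3 CPM against 14.7, 13 and 9.98 CPM, where the groups overlapped (0.57 ± 0.25, adjusted p = 0.11). EPG5, a tether for the same fusion, gave -0.07 ± 0.19 and 0.08 ± 0.23. Of the transcription factors that drive autophagy genes, TFE3 rose in both fractions, from 137 ± 11.3 to 209 ± 17.3 CPM (0.68 ± 0.16, adjusted p = 4.8e-04) and from 98.2 ± 8.6 to 199 ± 20.1 CPM (SD, n = 3, 1.00 ± 0.16, adjusted p = 0.0013). TFEB was at 0.265 to 1.27 CPM in GFP-positive libraries and gave -0.51 ± 0.46 (adjusted p = 0.37). Control and treated libraries of TFEB overlapped.

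Whether the response differed between the sort fractions was tested by the interaction of treatment and fraction over all 12 libraries. WIPI1 and WDR45 passed, both with the smaller response in GFP-positive cells. Of 16226 genes tested, 2.19% passed, 1.22% in that direction and 0.968% in the other, in which none of the 38 did. The difference in log2 fold change, GFP-positive minus GFP-negative, was -1.33 ± 0.26 for WIPI1 and -1.31 ± 0.25 for WDR45 (SE, edgeR adjusted p = 0.013 for each). DESeq2 called the same 2 genes, as did the replicate block and a block for each culture, which pairs the fractions of one treatment and replicate number. With the block for each culture, 1264 of all genes passed against 355 in the main fit, so the share of all genes depends on the pairing. The call for WIPI1 was lost without control GFP-positive replicate 2, treated GFP-positive replicate 3 or treated GFP-negative replicate 1 (-1.25, -1.13 and -1.23, adjusted p up to 0.069), and that for WDR45 without treated GFP-positive replicate 1 or 3 (-1.19 and -1.14, adjusted p up to 0.054).

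The other 36 genes did not pass, so that genes called in 1 fraction, such as ATG9A, PIK3C3, ATG14, STX17, AMBRA1 and ATG4D, were not shown to differ. The estimate was negative for 29 of the 38, with a median of -0.24 against -0.05 over all genes. With library size alone as the scaling, the median moved to 0.02 and that of all genes to 0.20. The class medians were lowest for the WIPI, ATG2 and ATG9 genes (-0.54, all 8 negative) and nearest 0 for the ER membrane and fusion genes (-0.06). The largest positive estimate was that of ATG4C (1.35 ± 0.47, edgeR adjusted p = 0.16).

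Ratios of genes within a library do not depend on how libraries are scaled. They were taken for 6 pairs of partners or paralogs, picked with their values known. ATG13 over ULK1 was 0.623 to 0.719 in control and 0.974 to 1.57 in treated GFP-positive libraries, and 0.721 to 0.878 against 1.36 to 1.98 in GFP-negative libraries. RB1CC1 over ULK1 was 0.138 to 0.19 against 0.237 to 0.557 and 0.0865 to 0.198 against 0.215 to 0.286. Both ratios were higher in treated libraries of each fraction without overlap, but scaling does not remove the trend on GC content. With that trend removed, GFP-positive cells gave 0.49 for RB1CC1, 0.83 for ATG13 and 0.33 for ULK1 on the log2 scale, so that little of the difference between RB1CC1 and ULK1 remained, and GFP-negative cells gave 0.67, 1.21 and 0.37. NRBF2 over BECN1 was 0.446 to 0.512 against 0.747 to 0.952 and 0.428 to 0.502 against 0.766 to 0.827.

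WIPI1 over WIPI2 was 0.202 to 0.229 in control and 0.936 to 1.26 in treated GFP-positive libraries, 4.96-fold higher, and 8.93-fold higher in GFP-negative libraries. ATG5 over ATG16L1 was 2.51-fold and 2.17-fold higher, and with the GC trend removed ATG5 gave 0.68 and 0.63 and ATG16L1 -0.08 and -0.12 on the log2 scale. WDR45 over WDR45B moved in opposite directions, from a median of 0.302 to 0.209 in GFP-positive and from 0.232 to 0.381 in GFP-negative libraries. In all 6 pairs and both fractions the groups did not overlap. The exact two-sided permutation test then gives p = 0.1, the smallest that 3 against 3 libraries allow. As the pairs were picked with their values known, neither result is a test of them. Of single genes, 57.5% did not overlap in GFP-positive and 46.6% in GFP-negative cells, and the share of other pairs was not computed.

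**Figure D3:**
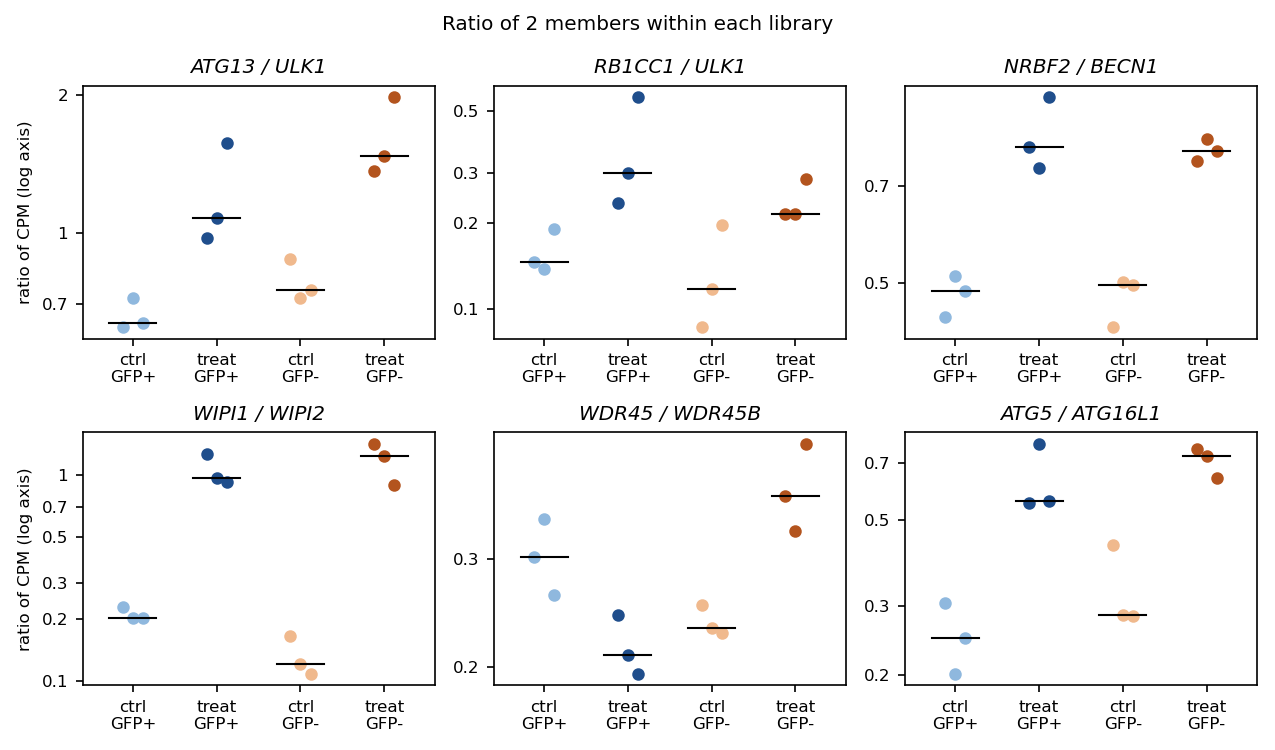
Ratio of the CPM of 2 genes within each library (points, log axis) with the group median (line), for 6 pairs of partners or paralogs. Treated libraries lie above controls in every pair except WDR45 over WDR45B, where treated GFP-positive libraries lie below theirs (0.195 to 0.243 against 0.262 to 0.349).

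Before treatment the fractions already differed in 11 of the 38 genes, against 40.2% of 15404 genes tested. Of these, 9 were higher in GFP-positive cells (17.1% of all genes) and 2 lower (23.1%). With a fold change of at least 2, 2 were higher (7.47% of all genes) and 2 lower (15.3%), against 22.8% in both directions. Libraries did not overlap for 18 genes that were higher and 2 that were lower (29.1% and 24.1% of all genes, 53.2% in all). With the replicate number as a block, ATG13, RB1CC1 and AMBRA1 were called higher as well, and 7948 of all genes were called against 6192 without it. ULK2 had 52.5, 57.3 and 67.6 CPM in control GFP-positive and 21, 27.1 and 32.4 CPM in control GFP-negative libraries, with no overlap, a log2 difference of 1.03 ± 0.20 (edgeR adjusted p = 0.0025). UVRAG (0.87 ± 0.17, adjusted p = 0.0031) and RUBCN (0.89 ± 0.17, adjusted p = 0.0022), partners in the Beclin 1 complex of later steps, were also higher. So were ULK1 (0.54 ± 0.15, adjusted p = 0.014) and ATG9B (1.00 ± 0.24, adjusted p = 0.0079). These 5 and ATG4C kept their call in all 15 alternatives. WIPI1, ATG2B, EPG5 and TFE3 were higher with adjusted p-values of 0.017, 0.022, 0.022 and 0.048. Each was lost on leaving out at least 1 library, namely control GFP-positive replicate 2 for all 4, replicate 1 for WIPI1 and TFE3, replicate 3 for ATG2B, EPG5 and TFE3, control GFP-negative replicate 2 for WIPI1, ATG2B and TFE3, and either other control GFP-negative library for TFE3.

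ATG4C was lower in control GFP-positive than in control GFP-negative libraries, with a log2 difference of -1.97 ± 0.38 (edgeR adjusted p = 0.0024), at the CPM given above. TFEB had 1.27, 0.753 and 0.704 CPM against 1.67, 1.5 and 5.27 CPM, lower without overlap (-1.75 ± 0.54, adjusted p = 0.026). The 5.27 CPM belongs to replicate 3, the library with white blood cell transcripts, and without it the difference was -0.89 (adjusted p = 0.092). It was also lost without control GFP-positive replicate 2 or 3.

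After treatment, 8 genes were higher and 6 lower in GFP-positive cells, against 49.8% of 15416 genes tested in both directions (24.9% higher and 24.9% lower). With a fold change of at least 2, 2 were higher and 1 lower, against 10% and 13.7% of all genes (23.7% in all). Libraries did not overlap for 10 genes that were higher and 6 that were lower (28.2% and 29.6% of all genes, 57.8% in all). With the replicate number as a block, ULK1 and ATG14 were called higher as well, and 9146 of all genes were called against 7678 without it. The groups share cultures and treated libraries with the comparisons above, so these are the same measurements from another side. ULK2 (1.05 ± 0.18, edgeR adjusted p = 5.2e-04), ATG2B (1.08 ± 0.16, adjusted p = 1.8e-04), UVRAG (0.78 ± 0.16, adjusted p = 0.0018), RUBCN (0.77 ± 0.16, adjusted p = 0.002) and EPG5 (0.67 ± 0.19, adjusted p = 0.011) were higher again, although the call for EPG5 was lost without treated GFP-positive replicate 1 or treated GFP-negative replicate 1 (adjusted p up to 0.059). ATG2B had 51.8, 42.3 and 53.2 CPM in GFP-positive against 25.5, 21.7 and 23.7 CPM in GFP-negative libraries, and ULK2 57.7, 60.6 and 48.2 against 26.4, 32.6 and 22.5 CPM. Neither overlapped between the fractions. TFEB remained lower (0.99, 0.573 and 0.265 against 1.81, 1.56 and 1.73 CPM, -1.47 ± 0.43, adjusted p = 0.013).

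WDR45 was lower in treated GFP-positive cells (-0.90 ± 0.15, edgeR adjusted p = 4e-04) and kept its call in all 15 alternatives. WIPI1 was lower as well (-0.47 ± 0.16, adjusted p = 0.023), a call lost with library size alone and without treated GFP-positive replicates 2 or 3 or treated GFP-negative replicate 1 (adjusted p up to 0.14). RB1CC1 was higher (0.89 ± 0.20, adjusted p = 0.0025). ATG101 (-0.65 ± 0.22, adjusted p = 0.028), ATG4D (-0.64 ± 0.17, adjusted p = 0.0071) and ATG7 (-0.62 ± 0.19, adjusted p = 0.015) were lower, and ATG12 (0.53 ± 0.17, adjusted p = 0.018) and TMEM41B (0.57 ± 0.18, adjusted p = 0.017) higher. Of these 5, all but ATG7 lost their call with the GC trend removed (adjusted p up to 0.34), and ATG101 and ATG7 lost it with library size alone. Single libraries decided some of these calls too. ATG101 lost its call without treated GFP-positive replicates 1 or 2 or treated GFP-negative replicates 1 or 3, and TMEM41B without treated GFP-positive replicates 1 or 3 or treated GFP-negative replicate 2. ATG12 lost it without treated GFP-positive replicate 3 or treated GFP-negative replicate 2, and ATG7 without treated GFP-negative replicate 1.

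**Figure D4:**
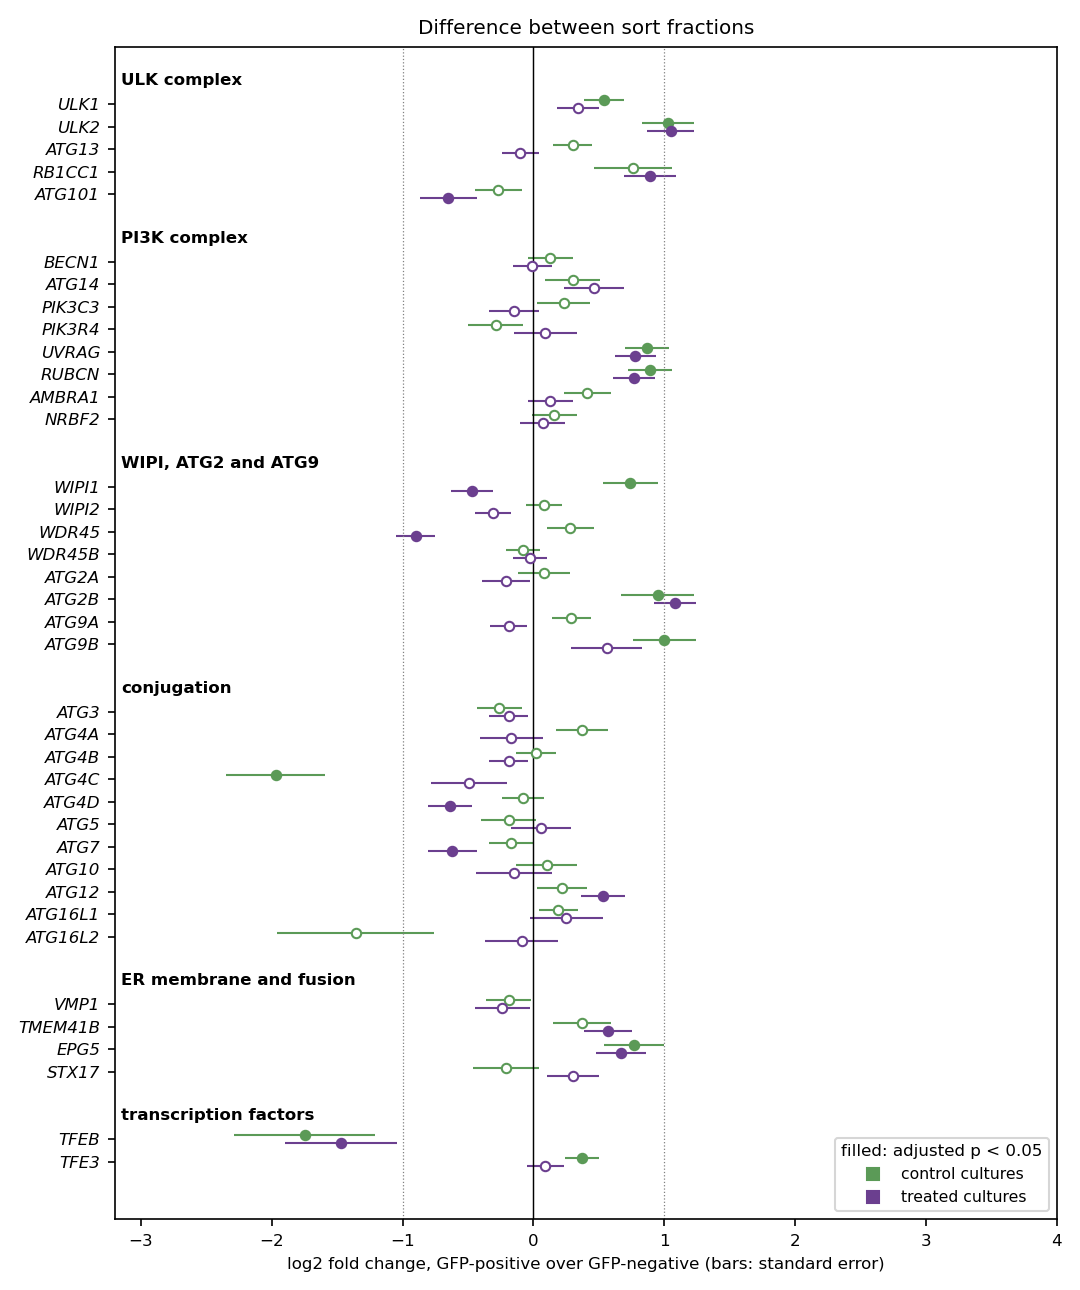
Log2 difference of each of the 38 genes, GFP-positive over GFP-negative, in control (green) and treated (purple) libraries, by functional class. Bars are standard errors and filled points have an adjusted p under 0.05. ULK2, UVRAG, RUBCN, ATG2B and EPG5 lie to the right in both, TFEB to the left in both, and WIPI1 and WDR45 shift to the left with treatment.

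To compare genes with each other, CPM was divided by the length in kilobases of the MANE transcript. In control GFP-positive cells the order began with WDR45B (62.9 ± 3.39 CPM per kb, SD, n = 3), ATG4B (58.2 ± 5.92) and ATG4D (48.1 ± 6.91). WDR45B and ATG4B did not differ beyond their spread, nor did the next 4, ULK1 (43.1 ± 3.09), ATG101 (42.7 ± 4.14), TFE3 (41.6 ± 3.42) and ATG9A (41.4 ± 7.16). In the middle lay BECN1 (16.4 ± 2.02), ATG16L1 (15.3 ± 0.466) and WIPI1 (14.7 ± 1.25), again within each other's spread. The order ended with ATG10 (1.76 ± 0.191), STX17 (1.13 ± 0.212), TFEB (0.389 ± 0.134) and ATG4C (0.317 ± 0.0977), of which the last pair did not differ beyond the spread. Members of 1 complex and paralogs thus had unlike values. ULK1 lay above RB1CC1 (5.43 ± 0.814) of its complex and ATG9A above its paralog ATG9B (2.37 ± 0.188). These values are not corrected for GC content, which was 64.2% in ULK1 and 37.6% in RB1CC1, nor for shared exons, as in ATG9A. The part of either in the order was not tested. After treatment WIPI1 ranked 2 in GFP-positive cells at 68.5 ± 7.87 CPM per kb, behind WDR45B (103 ± 9.02) and level with ATG101 (67.5 ± 12.6), and in GFP-negative cells it reached 96.4 ± 13.1 CPM per kb.

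**Figure D5:**
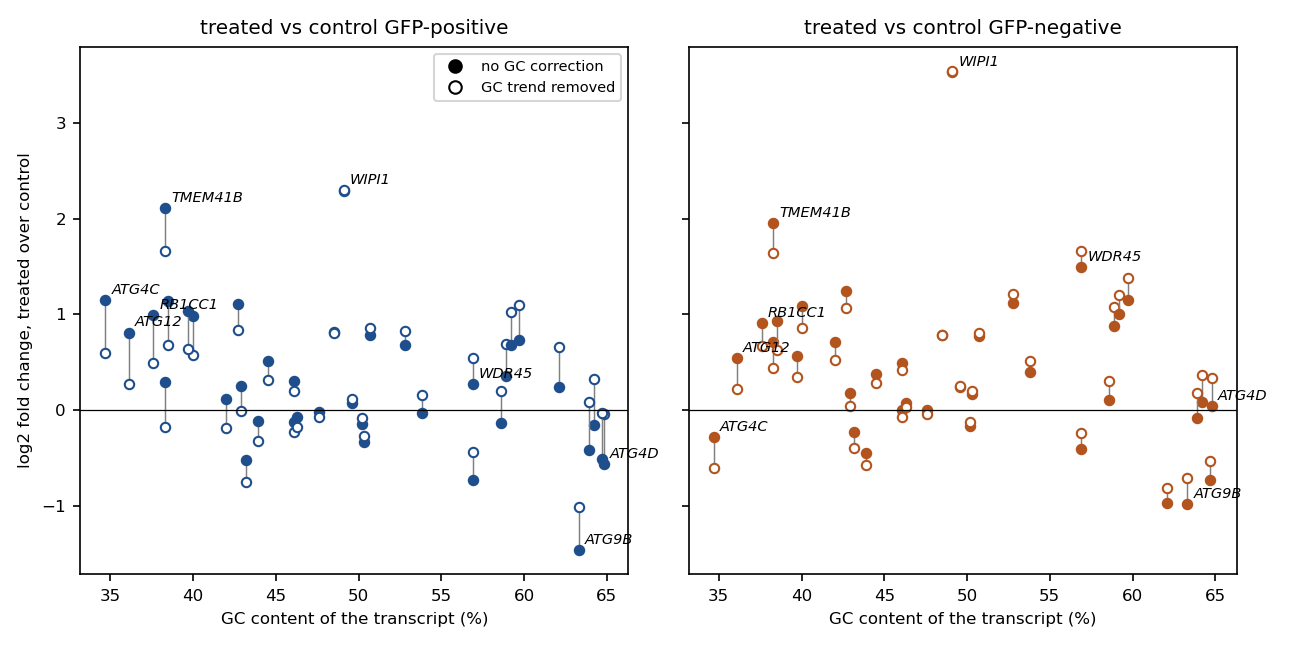
Log2 fold change of each gene, treated over control, against the GC content of its transcript (percent), before (filled) and after (open) removal of the trend on GC content in each library. GC-poor genes such as ATG12 and RB1CC1 move down and GC-rich genes such as ATG4D move up, more so in GFP-positive cells, whereas WIPI1 stays in place.

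Other genes of the pathway were described from lists of related function. Of the ATG8 proteins and the receptors that tie cargo to them, 12 of 19 genes were higher and 0 lower in each fraction (63.2%, against 50.9% of all genes in GFP-positive and 31.5% in GFP-negative cells), with median log2 fold changes of 0.96 in GFP-positive and 1.37 in GFP-negative cells. The largest increases were those of MAP1LC3C (3.19 ± 0.39, edgeR adjusted p = 2.2e-08) and the ER-phagy receptor CCPG1 (3.04 ± 0.21, adjusted p = 3.3e-14) in GFP-positive cells. CCPG1 (2.76 ± 0.24, adjusted p = 6.7e-05) and SQSTM1, the receptor p62 (2.66 ± 0.20, adjusted p = 2.5e-05), led in GFP-negative cells. MAP1LC3C was at only 0.413 ± 0.223 CPM (SD, n = 3) in control GFP-positive libraries.

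Of 31 genes of mTORC1 and AMPK, the nutrient and energy sensors above the ULK complex, 15 were higher and 3 lower in GFP-positive cells and 11 higher and 0 lower in GFP-negative cells, or 58.1% and 35.5% against 50.9% and 31.5% of all genes. The inhibitors of mTORC1 SESN2 (2.81 ± 0.17 and 3.15 ± 0.16, edgeR adjusted p = 9.6e-16 and 5.4e-06) and DDIT4 (2.69 ± 0.25 and 2.77 ± 0.54, adjusted p = 3.1e-11 and 0.0039) rose most. LAMTOR4 (-0.94 ± 0.19, adjusted p = 7e-05) and LAMTOR2 (-0.61 ± 0.18, adjusted p = 0.0057), parts of the lysosomal anchor of mTORC1, fell in GFP-positive cells. The other parts of the anchor went both ways there. LAMTOR1 had 103 to 136 CPM in control and 83.2 to 97.2 CPM in treated libraries. LAMTOR3 had 23.4 to 29.9 against 53.9 to 91 CPM, and LAMTOR5 48 to 56.6 against 62.1 to 91.8 CPM. Of 15 tethering and fusion genes tested, 1 rose and 3 fell in GFP-positive and 1 rose in GFP-negative cells (26.7% and 6.67%, below the same shares of all genes). The riser was the SNARE YKT6 (0.53 ± 0.16 and 0.84 ± 0.16, adjusted p = 0.0047 and 0.0031), and VPS16 (-0.55 ± 0.17, adjusted p = 0.0086) and TECPR1 (-0.50 ± 0.16, adjusted p = 0.011) were among those that fell.

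Among 8 PI3P phosphatases and binding partners of Beclin 1, 2 were higher and 1 lower in GFP-positive and 2 higher in GFP-negative cells, or 37.5% and 25% against 50.9% and 31.5% of all genes. BCL2L1, which holds Beclin 1 inactive as well as blocking apoptosis, fell in GFP-positive cells (-1.19 ± 0.16, edgeR adjusted p = 1.5e-07) and gave -0.10 ± 0.16 in GFP-negative cells (adjusted p = 0.66). TAB3 (0.74 ± 0.18, adjusted p = 9.6e-04) and SH3GLB1 (0.53 ± 0.16, adjusted p = 0.0064) rose in GFP-positive and MTMR14 (0.70 ± 0.16, adjusted p = 0.0083) and SH3GLB1 (0.67 ± 0.19, adjusted p = 0.021) in GFP-negative cells. Of other transcription factors linked to autophagy genes, 4 of 5 tested rose and 1 fell in GFP-positive cells, and 4 of 6 rose and 1 fell in GFP-negative cells, with median log2 fold changes of 1.51 and 1.42 (100% and 83.3% called, against 50.9% and 31.5% of all genes). DDIT3 (3.62 ± 0.21 and 3.05 ± 0.37, adjusted p = 1.7e-16 and 3.4e-04) and ATF4 (1.87 ± 0.17 and 1.96 ± 0.26, adjusted p = 1.4e-11 and 5.4e-04), factors of the integrated stress response, led, while ZKSCAN3 fell in GFP-positive (-0.66 ± 0.20, adjusted p = 0.0064) and FOXO1 in GFP-negative cells (-0.82 ± 0.27, adjusted p = 0.044).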

How the data were processed

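RNA from 12 sorted samples was sequenced with a stranded mRNA kit. Per the labels and the methods, the authors aligned reads by HISAT2 against hg38 with Ensembl genes and counted them with featureCounts, without a version or strand setting in the sources used here. The deposited values are raw counts per gene symbol, with 0 sample columns left unused. All titles carry the word untreated, and groups were taken from the control or treated entry that follows it. Library totals of 23414935 to 38347050 counts set the precision.

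Counts were analysed in edgeR 4.0.16 (R 4.3.3) with TMM scaling, filterByExpr (minimum count 10, total 15) and quasi-likelihood tests, with Benjamini-Hochberg adjustment across every gene in the fit. Treatments were compared inside each fraction, fractions inside each treatment, and responses between fractions by the interaction over all 12 libraries. Fold changes are shrunk only by edgeR's default prior count. Differentially expressed genes had an adjusted p under 0.05 and, where stated, a fold change of at least 2. Alternatives were DESeq2 1.42.0, RLE scaling, library size alone, no filter, 10 counts in every library, loess removal of the GC trend (span 0.5), a replicate block, both, glmTreat, all 12 libraries in one fit and each library left out. For the interaction, a block for each culture was also run. glmTreat tests another hypothesis and is not among the 15 alternatives (21 for the interaction) over which calls are said to be kept. On simulated counts for the GFP-positive comparison, the edgeR fit recovered 198 of 200 changed genes with 8 false calls among 15349 genes. It recovered 199 with 16 false calls for GFP-negative cells, and 174 with 10 for the interaction. Only 200 genes changed there, each at least 2-fold, with the same spread for every gene and no GC trend. In the data far more genes were called, many by less, so the simulation checks the code and does not measure how reliable the calls are.

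GENCODE 44 gave lengths, GC content and overlaps (25763 of 28278 symbols, 91.1%, matched). Promoter windows are RefSeq's, on GRCh38.p14. The genes, lists, pairs and tests were chosen with earlier results of these data known. All 38 genes are named, with full statistics for up to 3 genes of each class with the smallest adjusted p in either treatment comparison, library values for those past a 2-fold change, and up to 2 genes per other list and direction. Genes named beyond this rule, MAP1LC3C's level, the white blood cell markers and the overlapping genes were chosen after their values were seen.

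Same-numbered treated libraries of the 2 fractions deviated together over 16226 genes (correlations of 0.16, 0.2 and 0.36), so the replicate numbers of the labels were taken to pair them. Those of treated and control libraries did not all do so (-0.017, 0.1 and 0.13 in GFP-positive, -0.047, 0.28 and 0.03 in GFP-negative cells). Same-numbered control libraries of the 2 fractions gave 0.28, 0.085 and 0.21, each above those of different numbers (-0.29 to 0.043). The main fits used no pairing, and the replicate block was an alternative.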

Additional observations from a re-analysis of the deposited data

Results flagged for a closer look

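The response of 2 genes differed between the sort fractions in the interaction test (edgeR, Benjamini-Hochberg over 16226 genes). For WIPI1 the log2 response in GFP-positive cells minus that in GFP-negative cells was -1.33 (adjusted p = 0.013). For WDR45 it was -1.31 (adjusted p = 0.013). WIPI1 rose in both fractions, to 148, 121 and 122 CPM in treated GFP-positive and 209, 184 and 159 CPM in treated GFP-negative libraries. WDR45 had 58.6, 51.6 and 55.2 CPM and 102, 89.5 and 123 CPM in the same libraries, and its ratio to WDR45B went down in GFP-positive and up in GFP-negative libraries. Both calls depended on single libraries, as given with the interaction results.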

How the results depend on the processing

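Of the genes called, 14 of 18 kept their call in every one of 15 alternatives in GFP-positive and 10 of 16 in GFP-negative cells, 6 of 11 and 7 of 14 between the fractions of control and treated cultures, and 0 of 2 in the interaction (21 alternatives), and no called gene changed sign. glmTreat left 2 higher and 0 lower genes in GFP-positive, 2 higher in GFP-negative, 0 higher and 1 lower between control fractions, and 0 and 0 between treated fractions. Over all genes tested, in the same order, 1648 of 15333, 812 of 15513, 1703 of 15404 and 1560 of 15416 passed it. Removal of the GC trend gave 0 lower genes in GFP-negative cells, 14 higher between control fractions and, with the 2-fold rule, 1 higher between treated fractions, and with the replicate block added also 0, 14 and 1, and 10 lower between treated fractions. Library size alone gave 1 lower gene past 2-fold in GFP-negative cells and 3 lower between treated fractions, where the share of higher genes among all called moved from 49.9% to 61.8%, and in the interaction from 44.2% to 76%. It moved the median of all genes from 0.03 to 0.14 in GFP-positive cells. A minimum of 10 counts in every library left 1 higher gene past 2-fold between control fractions. The causes were not tested. Leaving out 1 library gave 3 to 5 lower genes in GFP-positive cells (5 without treated replicate 3) and 0 to 1 lower in GFP-negative cells, with or without the 2-fold rule. Between control fractions it gave 5 to 9 higher (5 without GFP-positive replicate 2) and 1 to 3 lower genes, and past 2-fold 0 to 3 higher (0 without GFP-positive replicate 3 or GFP-negative replicate 1) and 1 to 3 lower (1 without GFP-positive replicates 2 or 3 or GFP-negative replicate 3). Between treated fractions it gave 3 to 6 lower (3 without GFP-negative replicate 1) and, past 2-fold, 1 to 2 higher (1 without GFP-positive replicates 2 or 3 or GFP-negative replicate 3), and in the interaction 0 to 2 (0 without treated GFP-positive replicate 3). With the replicate block, the pairing of equal numbers gave 16 higher and 3 lower genes in GFP-positive, 14 and 0 in GFP-negative, 12 and 2 between control fractions and 10 and 6 between treated fractions, and 2 in the interaction. It lost ATG9B and ATG12 in GFP-negative cells and no other call, and added ATG9A in GFP-positive cells, ATG13, RB1CC1 and AMBRA1 between control fractions and ULK1 and ATG14 between treated fractions. Depth limits TFEB, ATG4C, ATG9B, ATG10 and ATG16L2 most, with all group means under 10 CPM, and 3 libraries per group limit all values.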

Other observations

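Markers of other cells were called with treatment as follows. Beside them, 26.5% of all genes were higher and 24.4% lower in GFP-positive cells, and 15.3% and 16.2% in GFP-negative cells. Of the 8 general neuron markers, 2 were higher and 5 lower in GFP-positive and 2 higher and 6 lower in GFP-negative cells (edgeR, adjusted p under 0.05). Their summed level was 14400 to 17300 CPM in control and 7310 to 9100 CPM in treated GFP-positive libraries. Of 7 neural progenitor markers tested, 2 were higher and 3 lower in GFP-positive and 5 lower in GFP-negative cells, and all 6 markers of proliferating cells were lower in GFP-negative cells against 5 in GFP-positive cells. Of the motor neuron markers, 7 of 8 were lower in GFP-positive and 5 of 8 in GFP-negative cells. Interneuron markers summed to at most 31.3 CPM in any library, astrocyte markers to at most 118 CPM and white blood cell markers in treated libraries to at most 17.4 CPM. Of interneuron markers tested, 1 of 4 was lower in GFP-positive and 2 of 7 in GFP-negative cells. These called shares of 25% and 28.6% did not exceed the 50.9% and 31.5% of all genes called in either direction. Of astrocyte markers, 2 of 2 were lower in GFP-positive and 1 rose and 1 fell of 4 in GFP-negative cells. Oligodendrocyte lineage markers were lower in 3 of 3 tested in GFP-positive and 2 of 4 in GFP-negative cells, mesenchymal markers in 3 of 3 and 3 of 5, with 1 of the 5 higher, and pluripotent stem cell markers in 1 of 2 in each. The part of these shifts in the autophagosome genes was not tested.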
